A study of Mus musculus with 3 samples.

Results

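The genes described here are 52 transcription factors, none of them a Hox gene, that pattern limb, face and somite mesenchyme in the embryo. They were chosen by name, and a probe counted for a factor where its transcript accession belonged to that gene in RefSeq. Of the 52, 49 had a probe (72 probes in all), and 40 passed the filter on dim probes and were tested among 18488 genes and transcripts. The other 12 are accounted for below. Primary fibroblasts were grown out of mouse embryos at stage E12.5, left untreated and kept in DMEM with 10% serum. Each of 3 two-colour Agilent arrays carried RNA from 1 culture labelled SA1-null in Cy3 and from 1 culture labelled wild type in Cy5. Cohesin, of which SA1 is a subunit, is the ring complex that holds sister chromatids and shapes chromatin loops, and the question of the series, by its title, is the role of this subunit in gene control and development. The labels call the arrays biological replicates and name neither the embryos, their body part nor a strain, so p-values measure only the spread between these 3 arrays.

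Embryonic fibroblasts come from mixed mesenchyme, and such cells are known to keep a positional record in their transcription factors. Paired-type and bHLH factors such as Prrx1 and Twist1 mark limb and face mesenchyme, DLX factors give identity to the branchial arches, and T-box and PITX factors separate forelimb from hindlimb. SOX9, RUNX2, SP7 and SCX direct cells to cartilage, bone or tendon, and PAX and MEOX factors divide the somite. These factors answer to hedgehog, BMP, FGF, WNT and retinoid signals and switch on matrix genes of the tissue concerned.

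Every difference below is a log2 ratio of Cy3 over Cy5, that is, labelled SA1-null over labelled wild type, so a value of 1 is a 2-fold difference. Levels are normalized log2 intensities of 1 probe and are compared only within a probe. Stag1, the gene of SA1 itself, had ratios of 3.34, 3.74 and 3.47 (limma adjusted p = 0.0273), which is the opposite of what the labels say, and all signs here would turn if the channels were exchanged. Dye and genotype cannot be told apart, since no array had the dyes reversed. Between 60.6% and 67.0% of probes were well above background per channel and array. Replicate 1 was on a slide of its own and was scored with another Feature Extraction version than replicates 2 and 3, and it alone gave signals above background for the 4 Y-linked genes checked, in both channels. These differences cannot be told apart from replicate 1 itself. Of the fibroblast markers, 9 of 10 tested had a mean above 0 (median 0.75), and their summed log2 level ran from 18.38 to 19.70 in Cy3 and from 18.17 to 18.37 in Cy5. All 19 macrophage markers tested were below 0 on every array (median -2.86, 12 called in limma), with summed levels of 13.12 to 15.31 in Cy3 and 16.22 to 18.77 in Cy5, and 17 of the 19 exceeded background in Cy3 and Cy5 on every array. In a bulk culture, fewer cells of a type and less RNA per cell cannot be told apart, and the part of these markers in the results below was not tested.

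No patterning factor passed the test over all genes. In limma 0 of 40 reached an adjusted p under 0.05, where 0.314% of all genes tested did. At an unadjusted p under 0.05 there were 7 of 40 (Prrx1, Osr1, Prrx2, Twist2, Sox9, Sp7 and Meox1), beside 7.49% of all genes. All 7 stood higher in Cy3, labelled SA1-null, a direction in which 2.33% of all genes reached that p. The mean ratio was above 0 for 28 of 40, beside 45.6% of all genes, and the median was 0.27, beside -0.02 over all genes. That median came from unlike arrays: it was 0.74 on replicate 1, 0.07 on replicate 2 and -0.02 on replicate 3. Without replicate 1 it was 0.03, with 23 of 40 above 0.

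**Figure D1:**
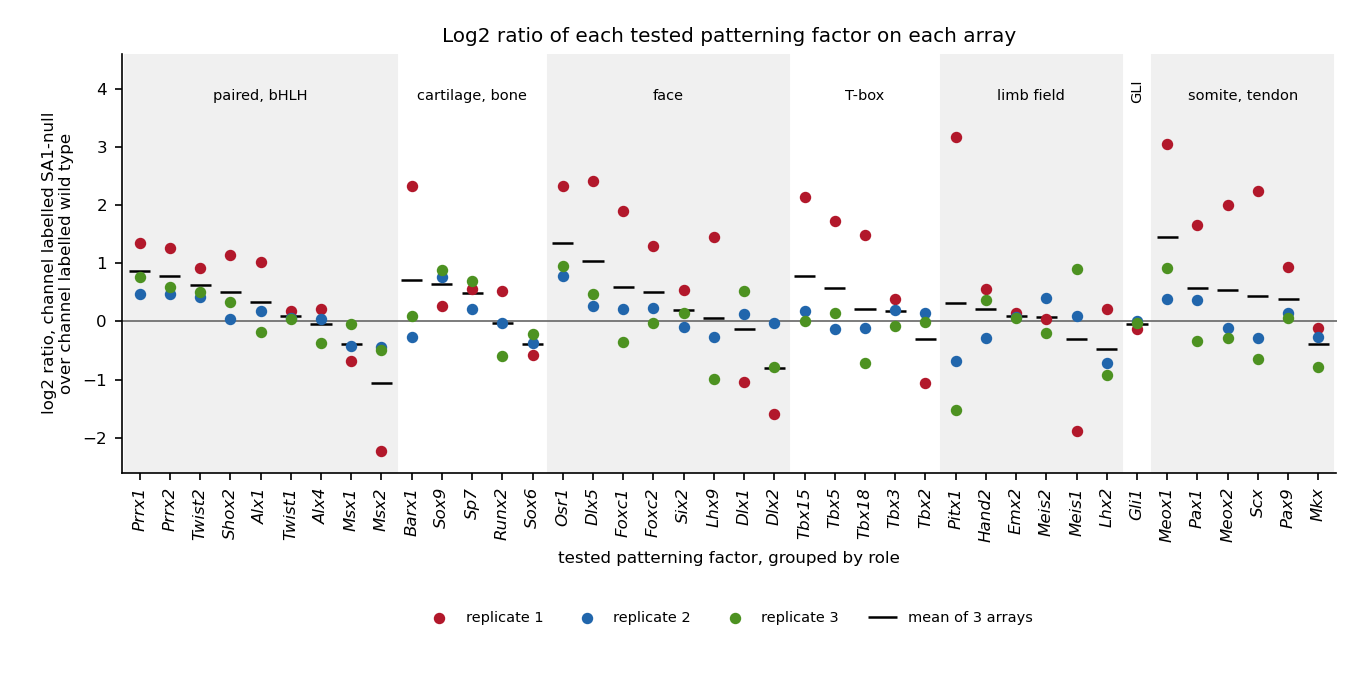
Log2 ratio (vertical axis, labelled SA1-null over labelled wild type) of the 40 tested patterning factors, grouped by role along the horizontal axis, with 1 point per array and a bar at the mean of 3 arrays. Replicate 1 holds nearly all of the values beyond 1 or -1, from -2.23 for Msx2 to 3.17 for Pitx1, while replicates 2 and 3 lie between -1.52 and 0.96.

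Among the paired-type and bHLH factors, 6 of 9 had a mean above 0, beside 45.6% of all genes, and Prrx1, Prrx2 and Twist2 had the smallest p-values in limma. Prrx1, a homeodomain factor of early limb bud mesenchyme, read 12.48, 12.05 and 12.20 in Cy3, against 11.13, 11.58 and 11.43 in Cy5 on replicates 1, 2 and 3. All its Cy3 levels lay above all its Cy5 levels. The ratios were 1.35, 0.47 and 0.77 (mean 0.86 ± 0.45, SD, n = 3, 1.82-fold), which did not pass (limma adjusted p = 0.452). Its 4 kept probes gave means of 0.78 to 1.13, all of the same sign. Prrx2, its close relative, read 15.96, 14.60 and 14.94 in Cy3, against 14.70, 14.13 and 14.34 in Cy5. Each array had Cy3 above Cy5, although the lowest Cy3 level was below the highest Cy5 level. Its mean ratio was 0.78 ± 0.42 (SD, n = 3, limma adjusted p = 0.505). Twist2, a bHLH factor of dermal and bone precursors, read 10.06, 13.22 and 13.20 in Cy3, against 9.15, 12.80 and 12.69 in Cy5. Both channels of replicate 1 were over 3 log2 units below those of the other arrays, and the ratio was above 0 on each (0.91, 0.43 and 0.51; mean 0.62 ± 0.26, limma adjusted p = 0.516). Its relative Twist1 stood at 0.18, 0.06 and 0.05.

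Msx2, a homeodomain factor that BMP signals induce in limb and skull mesenchyme, went the other way. It read 9.72, 9.76 and 9.64 in Cy3, against 11.95, 10.20 and 10.12 in Cy5. The Cy3 levels were all below the Cy5 levels, and the Cy5 culture of replicate 1 stood highest. The ratios were -2.23, -0.44 and -0.49 (mean -1.05 ± 1.02, SD, n = 3, limma adjusted p = 0.664). Msx1, its relative, was also below 0 on each array, at -0.69, -0.42 and -0.04. Of the remaining 3, Shox2, a factor of the proximal limb skeleton, had ratios of 1.14, 0.04 and 0.32 with Cy5 above background on 2 of 3 arrays. The face and limb factors Alx1 (1.02, 0.18 and -0.19) and Alx4 (0.22, 0.04 and -0.37) had both signs among the arrays.

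The upstream promoters of Prrx1, Prrx2, Twist2 and Msx2 are shown because these members of the group kept 1 sign on every array at unadjusted limma p-values between 0.012 and 0.051. They are 250 bases before the start of each gene from RefSeq, assembly GRCm38.p6, written 5′ to 3′ on the gene's strand. Capitals mark TAATTA, the core that many homeodomain proteins bind, which reads the same on both strands. They lie at chr1:163313651-163313900 (minus strand), chr2:30845117-30845366 (plus), chr1:91801211-91801460 (plus) and chr13:53472781-53473030 (minus), in that order.
Prrx1: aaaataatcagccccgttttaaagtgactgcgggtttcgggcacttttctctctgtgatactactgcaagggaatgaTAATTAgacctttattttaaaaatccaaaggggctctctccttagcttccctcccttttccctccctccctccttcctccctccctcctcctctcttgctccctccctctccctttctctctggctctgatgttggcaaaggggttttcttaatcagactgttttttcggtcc
Prrx2: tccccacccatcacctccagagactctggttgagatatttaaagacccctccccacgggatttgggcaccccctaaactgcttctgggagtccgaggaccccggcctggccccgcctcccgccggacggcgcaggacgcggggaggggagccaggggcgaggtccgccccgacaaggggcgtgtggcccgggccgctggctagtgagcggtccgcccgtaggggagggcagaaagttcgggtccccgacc
Twist2: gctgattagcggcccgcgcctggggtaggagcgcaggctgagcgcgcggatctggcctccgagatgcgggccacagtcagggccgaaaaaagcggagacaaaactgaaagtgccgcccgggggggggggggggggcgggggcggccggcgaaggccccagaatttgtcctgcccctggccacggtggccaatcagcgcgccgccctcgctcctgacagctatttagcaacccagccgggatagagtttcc
Msx2: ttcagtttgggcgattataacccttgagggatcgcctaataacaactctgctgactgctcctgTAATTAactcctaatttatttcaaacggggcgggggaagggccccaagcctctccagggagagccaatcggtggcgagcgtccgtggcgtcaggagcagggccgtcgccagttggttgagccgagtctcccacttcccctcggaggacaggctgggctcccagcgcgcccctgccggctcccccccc
The motif began 173 bases before the start of Prrx1 and 187 bases before that of Msx2, and these letters were not in the windows of the other two. Across the table, 4.84% of 32851 promoters held it, beside 8.11% of the 37 promoters of patterning factors. By gene, 3 of the 31 patterning factors with a promoter in the table had it (Hand2, Msx2 and Prrx1). Those with it differed in sign here: Prrx1 had a mean ratio above 0 and Msx2 below. TATAAA, the core of the TATA box, was in 6 of the 31 (16.2% of the 37 promoters) and in 12.4% of all promoters. GACCACCCA, the GLI core, was in 0 of 31 and in 0.225% of all. Each was searched on both strands. GC content was 47.6% before Prrx1, 70.0% before Prrx2, 68.8% before Twist2 and 61.6% before Msx2, beside a median of 60.8% for the 37 promoters of patterning factors and 52.4% for the whole table.

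The cartilage and bone factors were led by Sox9, the factor that starts cartilage formation, and here replicate 1 gave the smallest ratio. Sox9 read 11.72, 10.68 and 10.59 in Cy3, against 11.45, 9.92 and 9.70 in Cy5. Both channels were highest on replicate 1, and within each array Cy3 was above Cy5. The ratios were 0.27, 0.76 and 0.89 (mean 0.64 ± 0.33, SD, n = 3, limma adjusted p = 0.543), and the means of its 3 kept probes ranged from 0.13 to 0.64. Another bright probe of Sox9 had -0.03, 0.74 and 0.43, so its sign on replicate 1 differed. Sp7, also called osterix and needed for bone cells, read 6.65, 7.10 and 7.77 in Cy3, against 6.09, 6.88 and 7.08 in Cy5. It was dim, its groups overlapped, and its ratios were 0.56, 0.21 and 0.69 (mean 0.49 ± 0.25, limma adjusted p = 0.639). Sox6, a partner of SOX9 in cartilage, read 9.26, 6.28 and 6.34 in Cy3, against 9.84, 6.65 and 6.54 in Cy5. Its ratio was below 0 on every array (mean -0.38 ± 0.19), with Cy3 well above background on 2 of 3. The other Sox6 probes did not pass the filter and had means of 0.0024, 0.0049 and 0.083. Runx2, the main bone factor, had ratios of 0.53, -0.03 and -0.60, and its 3 kept probes did not share a sign (-0.03 to 0.18). Barx1, a factor of jaw and joint mesenchyme, had ratios of 2.33, -0.28 and 0.10.

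Genes that SOX9 is known to switch on in cartilage stood higher in Cy3, labelled SA1-null, on replicate 1, while on the others they lay on both sides of 0, between -0.59 and 0.56. Of 13 listed, 7 were tested and 0 passed in limma (0 at an unadjusted p under 0.05 as well, beside 7.49% of all genes). Their median ratio was 2.76 on replicate 1, 0.02 on replicate 2 and -0.02 on replicate 3. On replicate 1, 6 of 7 were over 2-fold higher, as were 4.44% of all genes. The matrix protein gene Comp had ratios of 4.34, -0.11 and 0.16, the type IX collagen genes Col9a1 and Col9a2 had 3.60 and 2.70 on replicate 1 against 0.08 or less on the others, and Col2a1, the main cartilage collagen, had 2.08, 0.07 and 0.56. On replicates 2 and 3, Comp was dim in Cy3, at 48.5 and 52.5 over backgrounds of 36 and 28.5. Col9a1 was dim there too, at 35.5 and 39 over 27 and 28, so ratios of both genes on these arrays say little. A part of Sox9 in the ratios of these genes was not tested. At its brightest probe, the ratio of Sox9 was lowest on replicate 1, where the median of these genes was highest. By level, Sox9 at that probe was highest in both cultures of replicate 1. The summed log2 level of the chondrocyte markers there was 15.93 in Cy3 and 13.51 in Cy5, against 11.22 to 11.65 in the 4 other cultures. These markers share Col2a1, Acan, Col9a1 and Comp with the SOX9 targets, so the sum is not a separate observation. Of 8 tested bone genes listed with RUNX2 and SP7, not all of them targets of these factors, 0 passed in limma. At an unadjusted limma p under 0.05, 2 were higher and 1 lower, beside 2.33% and 5.15% of all genes. Tnfsf11, the RANK ligand (1.29, 0.39 and 0.84), and the stress and bone factor Atf4 (1.21, 0.24 and 0.90) were above 0 on all arrays. The collagenase Mmp13 had low ratios on replicates 2 and 3 (-0.19, -2.61 and -2.17), where its Cy5 level was higher (7.95, 10.30 and 9.97) at a similar Cy3 level (7.76, 7.69 and 7.80). Spp1, osteopontin, had its lowest ratio on replicate 1 (-2.18, -0.42 and 0.02).

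Of the distal-less and other craniofacial factors, 6 of 8 tested had a mean above 0, beside 45.6% of all genes, and 7 of 8 were past 2-fold on replicate 1, beside 14%. Osr1, a zinc finger factor of intermediate and limb connective tissue mesenchyme, read 11.34, 9.03 and 9.38 in Cy3, against 9.02, 8.25 and 8.42 in Cy5. Every Cy3 level was above every Cy5 level, by a narrow margin between replicate 2 in Cy3 and replicate 1 in Cy5. The ratios were 2.32, 0.77 and 0.96 (mean 1.35 ± 0.85, SD, n = 3, 2.55-fold, limma adjusted p = 0.459), and a second probe gave 0.73. Dlx5, a factor of the lower jaw and bone, read 8.59, 6.70 and 7.07 in Cy3, against 6.17, 6.44 and 6.60 in Cy5. Its groups did not overlap either, though 6.70 in Cy3 and 6.60 in Cy5 lay close. Its Cy5 spots on replicates 2 and 3 were dim, at 78 over backgrounds of 53 and 51. Most of the mean of 1.04 ± 1.19 (limma adjusted p = 0.703) came from 2.41 on replicate 1, with 0.26 and 0.47 on the others. Its neighbour Dlx6 had no matching probe.

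The other distal-less pair, Dlx1 and Dlx2, lies side by side with 0 coding genes between them in the RefSeq table. Dlx2 read 8.53, 10.65 and 10.13 in Cy3, against 10.12, 10.67 and 10.91 in Cy5. Cy3 was low on replicate 1 and the groups overlapped, with ratios of -1.59, -0.02 and -0.78 (mean -0.80 ± 0.78, limma adjusted p = 0.680). Dlx1 read 7.03, 7.39 and 7.79 in Cy3, against 8.08, 7.26 and 7.27 in Cy5. It shared the low ratio of replicate 1 (-1.05) and not the sign on replicates 2 and 3 (0.13 and 0.52). Among the rest, Foxc1 and Foxc2, forkhead factors of eye, vessel and somite mesenchyme, had 1.90 and 1.30 on replicate 1 and -0.36 to 0.24 elsewhere. Lhx9, a LIM factor of limb and gonad, had 1.44, -0.26 and -0.99, and Six2, known from the face and kidney, stayed within -0.09 and 0.54.

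Of the 5 tested T-box factors, each by its brightest probe, 0 kept the same sign on all arrays. Of all genes, 13.3% were above 0 and 19.1% below 0 on each. On replicate 1, 4 of the 5 were past 2-fold, beside 14% of all genes. Tbx5, which specifies the forelimb and heart, read 9.57, 6.74 and 7.14 in Cy3, against 7.84, 6.87 and 7.01 in Cy5. Both cultures of replicate 1 were above the other 4, and the ratios were 1.73, -0.13 and 0.14 (mean 0.58 ± 1.01). Its neighbour Tbx3, a repressor active at the limb margins, read 9.89, 11.10 and 10.83 in Cy3, against 9.51, 10.90 and 10.91 in Cy5. Replicate 1 was the lowest array for Tbx3, the reverse of Tbx5, and the ratios were small (0.38, 0.20 and -0.07). Tbx2, a repressor related to TBX3, read 8.53, 9.19 and 8.93 in Cy3, against 9.59, 9.04 and 8.94 in Cy5. The groups overlapped, with ratios of -1.06, 0.15 and -0.01. Its neighbour Tbx4, the hindlimb counterpart of Tbx5, did not exceed background in Cy5 (0 of 3 arrays). Tbx15, a factor of skin and skeletal mesenchyme, had 2.14, 0.18 and -0.00, with 2 probes of similar mean (0.77 and 0.79). The second of these was above 0 on every array (1.81, 0.17 and 0.40). Tbx18, of somite and limb mesenchyme, had 1.48, -0.12 and -0.71, and 1.03, -0.09 and 0.11 at its other probe.

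The factors of limb field, axis and identity included Pitx1, which had the largest SD over arrays of the 40. Pitx1, the hindlimb identity factor, and Meis1, a TALE factor of the proximal limb, were singled out after their values were seen. Pitx1 read 13.13, 10.51 and 9.77 in Cy3, against 9.96, 11.18 and 11.29 in Cy5. Replicate 1 had the highest Cy3 and the lowest Cy5 level of the gene, so its ratios ran 3.17, -0.68 and -1.52 (mean 0.32 ± 2.50, SD, n = 3, limma adjusted p = 0.945). Meis1 did the reverse. It read 8.18, 8.28 and 8.91 in Cy3, against 10.07, 8.20 and 8.01 in Cy5, with ratios of -1.88, 0.08 and 0.90 (mean -0.30 ± 1.43), and its other probe had a mean of -0.15.

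Lhx2, a LIM factor needed for limb outgrowth, read 8.80, 7.96 and 7.68 in Cy3, against 8.59, 8.69 and 8.61 in Cy5. The Cy5 levels lay close together, and Cy3 was below them on replicates 2 and 3 only, with ratios of 0.21, -0.72 and -0.93 (mean -0.48 ± 0.61, limma adjusted p = 0.708). Meis2 (0.04, 0.41 and -0.20), the posterior limb factor Hand2 (0.56, -0.29 and 0.37) and the shoulder girdle factor Emx2 (0.14, 0.07 and 0.06) showed smaller ratios.

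**Figure D2:**
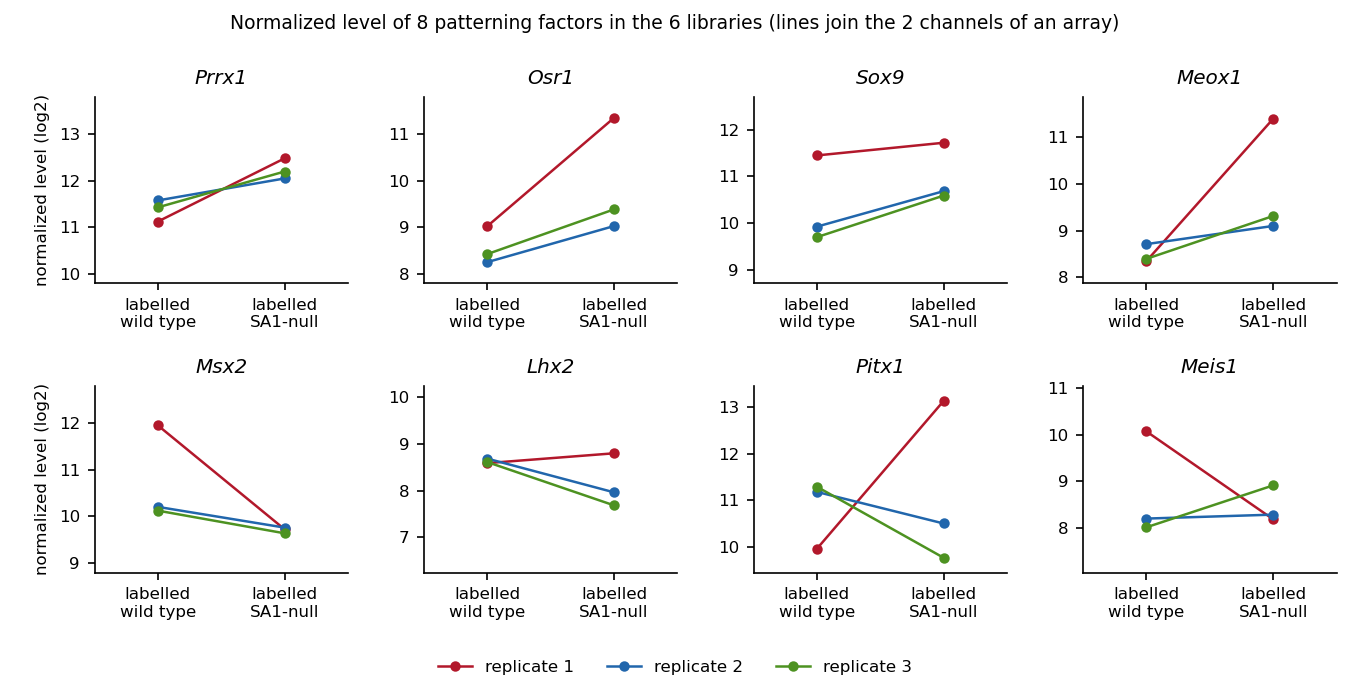
Normalized log2 level (vertical axis) of 8 patterning factors in the 6 cultures, with a line joining the channels of each array from labelled wild type to labelled SA1-null. Prrx1, Osr1, Sox9 and Meox1 slope up and Msx2 slopes down on all 3 arrays, while the line of replicate 1 runs against both others for Pitx1, Lhx2 and Meis1; each panel has its own range.

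Of the somite and tendon factors, 5 of 6 tested had a mean above 0, beside 45.6% of all genes, with replicate 1 far above the others. Meox1, a homeodomain factor of the sclerotome and joints between vertebrae, had the highest mean of all the patterning factors. It read 11.40, 9.10 and 9.32 in Cy3, against 8.35, 8.71 and 8.40 in Cy5. The groups did not overlap, and only the Cy3 culture of replicate 1 was far from the rest. The ratios were 3.05, 0.39 and 0.92 (mean 1.45 ± 1.41, SD, n = 3, 2.74-fold, limma adjusted p = 0.664), with 1.37 at the other probe. Meox2, which acts with it in somite and limb muscle, had 2.01, -0.11 and -0.29. Pax1 and Pax9, of the ventral somite, had 1.66, 0.38 and -0.33, and 0.94, 0.15 and 0.05, and the 2 Pax1 probes were opposite in sign (-0.11 and 0.57). Scx, the factor that marks tendon progenitors, had 2.25, -0.29 and -0.65, and Mkx, a later tendon factor, was below 0 on all arrays (-0.12, -0.27 and -0.79).

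Of 8 tendon genes listed with SCX and MKX, not all of them targets of these factors, 7 were tested and 0 passed in limma. At an unadjusted limma p under 0.05, 0 were higher, beside 2.33% of all genes, and 1 was lower, Egr2, beside 5.15%. The tendon matrix gene Thbs4 had 4.40, 0.05 and 0.14, with Cy5 above background on 2 of 3 arrays, and Tnmd, tenomodulin, had 2.89, 0.56 and 0.52. Egr2, a zinc finger regulator of tendon collagen, was below 0 on each array (-0.48, -0.92 and -1.31), and the proteoglycan gene Fmod had 0.08, 0.15 and 0.68.

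**Figure D3:**
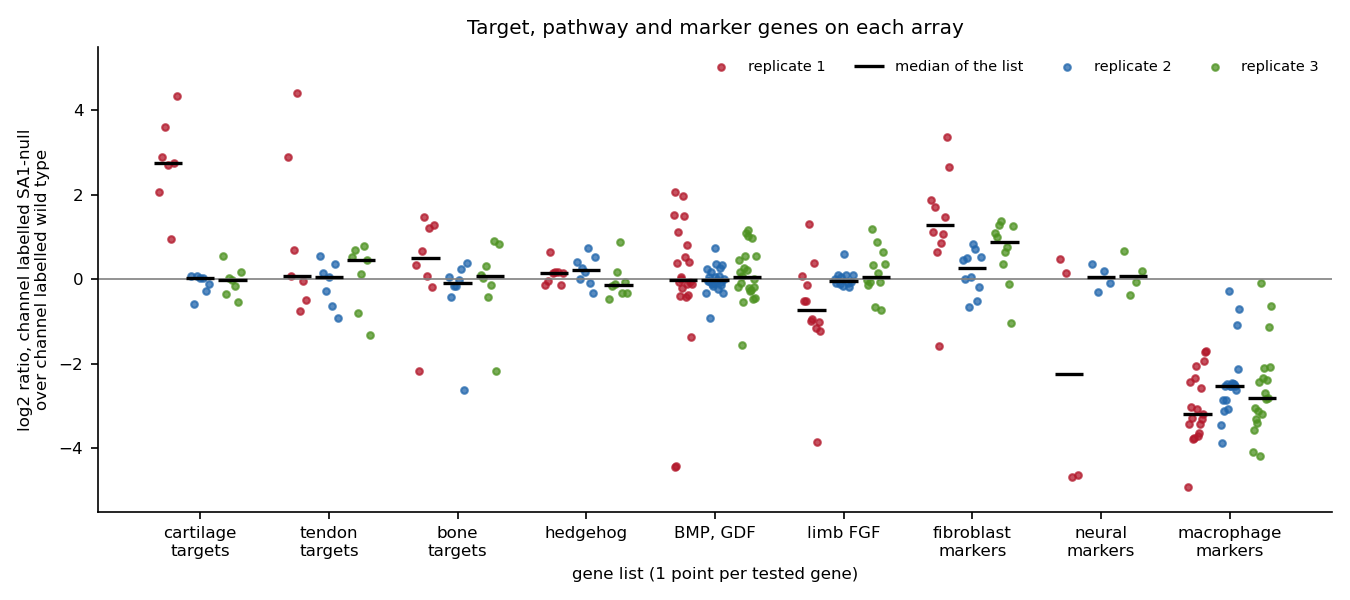
Log2 ratio (vertical axis, labelled SA1-null over labelled wild type) of each tested gene in 6 target and pathway lists and 3 marker lists (horizontal axis), with 1 colour per array and a bar at the median of the list. The cartilage genes have a median of 2.76 on replicate 1 and medians of 0.02 and -0.02 on replicates 2 and 3, whereas the macrophage markers lie below 0 on all 3 arrays.

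Of the signals that act above the patterning factors and of their partners, 0 genes passed in limma in any list. Gli1, the transcriptional read-out of hedgehog signalling and the 1 tested GLI factor, had -0.12, 0.00 and -0.03, with Cy3 above background on 2 of 3 arrays. In the hedgehog list (8 tested, median 0.03), 1 had an unadjusted limma p under 0.05, beside 7.49% of all genes. The co-receptor gene Gas1 had the smallest p, with 0.19, 0.75 and 0.88, and the receptor component Smo had 0.66, 0.26 and -0.10. Of 22 tested genes of BMP and GDF signalling (median 0.07), 3 were higher and 1 lower at that p, beside 2.33% and 5.15% of all genes. The BMP antagonist Grem1 (1.96, 0.75 and 1.03) and the inhibitory Smad6 (0.81, 0.28 and 0.98) were above 0 on all arrays. The BMP target Id2 was below 0 on all (-1.36, -0.33 and -0.44), while its relatives Id1 (-0.06, 0.35 and -0.17) and Id3 (-0.11, 0.00 and 0.55), named after their values were seen, were not. The ligands Bmp6 and Bmp7, picked out after their values were seen, stood at -4.43 and -4.42 on replicate 1 and between -0.08 and 0.17 on the others. On replicates 2 and 3 both were dim in Cy3. Bmp6 read 39 and 53 over backgrounds of 30.5 and 27, and Bmp7 read 58.25 and 66.3 over 30 and 26.9.

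Among 12 tested genes of limb FGF signalling (median -0.15), 1 was lower at that p, beside 5.15% of all genes. The receptor Fgfr3 (-0.99, -0.16 and -0.65) and the feedback phosphatase Dusp6 (-3.86, -0.17 and -0.72) were below 0 on all arrays. In the list of WNT and retinoid signals (16 tested, median 0.12), 2 were higher at that p, beside 2.33% of all genes. The secreted WNT modulator Dkk3 had 1.47, 0.64 and 1.00 (limma adjusted p = 0.295). Aldh1a2, which makes retinoic acid in the embryo, had -3.31, -0.42 and -0.81. Of 19 tested partners and cofactors (median 0.18), 3 were higher and 2 lower at that p, beside 2.33% and 5.15% of all genes. The LIM cofactor Ldb2 (1.31, 0.36 and 0.85) and the corepressor Tle1 (1.98, 0.22 and 0.89) were above 0 on all arrays. Eya1, a transcriptional coactivator (-0.98, -0.26 and -1.23), and Tle4, a corepressor (-2.38, -0.28 and -1.65), were below 0 on all.

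Replicate 1 carried most of the large ratios among the patterning factors. On it 23 of 40 were past 2-fold, beside 14% of all genes, with 18 higher (4.44% of all genes) and 5 lower (9.61%). On replicate 2 the count was 0 of 40, beside 1.97% of all genes, and on replicate 3 it was 1 of 40, Pitx1, beside 5.83%. Counting only factors that exceeded background in Cy3 and Cy5 on every array gave 22 of 37 on replicate 1, beside 14.2% of genes so chosen. The median SD over arrays was 0.61 for the patterning factors and 0.32 for all genes. Levels, too, set replicate 1 apart: the median gap between it and the mean of the other arrays was 0.88, against 0.48 for all genes, while the gap between replicates 2 and 3 was 0.18 in both. On that array Sox2 and Nes, markers of neural precursors, had ratios of -4.68 and -4.62 and were between -0.09 and 0.21 on the others. Sox2 was dim in Cy3 on replicates 2 and 3, at 51 and 45.5 over backgrounds of 33.5 and 29. The other tested neural markers, Tubb3 (0.48, 0.37 and 0.66) and Map2 (0.16, -0.30 and -0.37), were above 0 on replicate 1. The summed level of the neural markers there was 11.45 in Cy3 and 14.80 in Cy5, against 13.40 to 13.84 in the 4 other cultures, and the neuronal marker Elavl3 was above background on 0 of 3 arrays in either channel. Of other cell types, the 1 tested endothelial marker, Kdr, had -2.83, -0.32 and -0.27, 5 epithelial markers had a median of -0.10 and 4 skeletal muscle markers a median of 0.01, with 0 of each called in limma. Single markers of these lists stood further out: Krt8 had -0.53, -1.28 and -1.25, and Krt18 had -0.20, -0.75 and -1.31. Of the 5 epithelial markers, 2 had a mean above 0 and 3 below, and the highest ratio on replicate 1 was 1.32. The muscle marker Des had 1.73, -1.61 and -1.30, beside Tnnt3 (1.63, -0.10 and 0.12), Acta1 (-0.32, -0.25 and 0.91) and Myod1 (-0.04, -0.08 and -0.17). The summed epithelial level was 9.45, 11.78 and 11.36 in Cy3, against 9.26, 12.48 and 12.52 in Cy5, and 0 of 4 erythroid markers passed the filter. What part these cultures' makeup had in the ratios was not tested.

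**Figure D4:**
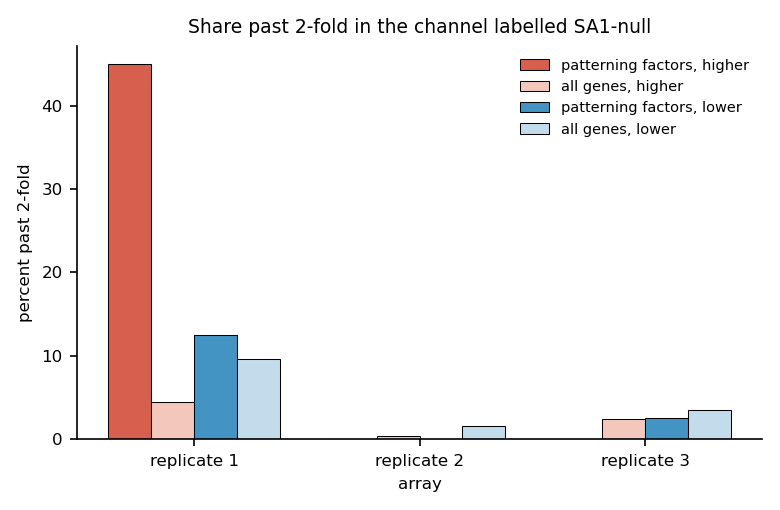
Percent of the 40 tested patterning factors and of the 18488 genes tested that were past 2-fold (vertical axis) on each array (horizontal axis), higher or lower in the channel labelled SA1-null. On replicate 1 the patterning factors reach 45% higher, beside 4.44% of all genes, whose bars stand at 0.362% higher and 1.61% lower on replicate 2 and at 2.36% and 3.46% on replicate 3.

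Across the 40 factors, ratios of replicates 2 and 3 had a Pearson correlation of 0.70 (0.47 over all genes), and those of replicate 1 had 0.16 with replicate 2 and -0.00 with replicate 3 (0.37 and 0.27 over all genes). Replicates 2 and 3 share a slide, so these are descriptions. By the brightest kept probe, the ratio had 1 sign on all 3 arrays in 17 factors. Of these, 12 were above 0, beside 13.3% of all genes, and 5 below (Dlx2, Mkx, Msx1, Msx2 and Sox6), beside 19.1%. Another kept probe of Sox9, and the Sox6 probes that did not pass the filter, had both signs. Groups of levels did not overlap for 6 higher factors (Dlx5, Meox1, Osr1, Pax9, Prrx1 and Shox2), beside 2.78% of all genes, and for 1 lower, Msx2, beside 6.09%.

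**Figure D5:**
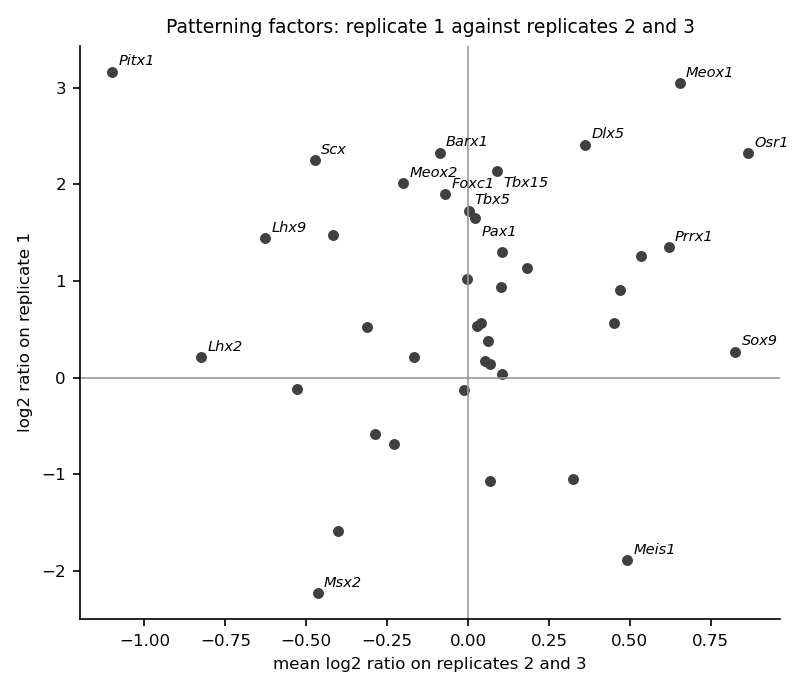
Log2 ratio on replicate 1 (vertical axis) against the mean of replicates 2 and 3 (horizontal axis), 1 point per tested patterning factor (n = 40). Osr1, Prrx1 and Meox1 lie above 0 on both axes and Msx2 below 0 on both, whereas Pitx1 stands at 3.17 on replicate 1 and at -1.10 on the others.

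Without replicate 1, limma called 0 of 40 factors, beside 1.54% of all genes, with 11 at an unadjusted p under 0.05, beside 8.05%. The 6 higher (beside 2.61%) were Osr1 (mean of replicates 2 and 3 0.87), Sox9 (0.83), Meox1 (0.65), Prrx1 (0.62), Prrx2 (0.54) and Twist2 (0.47). The 5 lower (beside 5.45%) were Pitx1 (-1.10), Lhx2 (-0.83), Lhx9 (-0.63), Mkx (-0.53) and Msx2 (-0.46). The first 6 and Msx2 and Mkx had the same sign on replicate 1, although another Sox9 probe stood at -0.03 there. Pitx1, Lhx2 and Lhx9 had the other sign there, as did Scx, Tbx18 and Meis1, whose means over replicates 2 and 3 were -0.47, -0.42 and 0.49. At the other Tbx18 probe that mean was 0.0087, of the same sign as on replicate 1. With the slide as a fixed term, which weighs both slides equally and takes its spread from replicates 2 and 3 alone, limma called 17 of 40, beside 9.58% of all genes. Those with 1 sign on all arrays were Meox1 (1.85), Osr1 (1.59), Dlx5 (1.39), Prrx1 (0.99), Prrx2 (0.90), Twist2 (0.69), Msx2 (-1.35) and Dlx2 (-0.996). The rest, with ratios of both signs over the arrays, were Tbx15, Barx1, Meox2, Tbx5, Scx, Foxc1, Pitx1, Foxc2 and Pax1. Their values in that fit ran from 0.71 for Foxc2 to 1.12 for Barx1.

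The 12 factors with no test were of 2 kinds. Dlx6, Gli2 and Nkx3-2 had no probe matching their transcripts. Sox5, Tbx4, Lmx1b, Gli3, Hand1, Osr2, Pax3, En1 and Tcf15 had probes that did not pass the filter, and Hand1 was above background on 0 of 3 arrays in either channel. Pax3, a factor of the dorsal somite and neural crest, was above background on replicate 1 alone. There its spot read 1515.5 in Cy5 and 98.0 in Cy3, before correction, and its ratio was -2.07, with 0.02 on each of the others. Osr2, a relative of Osr1 in palate and limb, was above background in Cy3 on 2 arrays and in Cy5 on 1, and had ratios of 2.44, 0.08 and 0.30.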

How the data were processed

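Expression was measured on 3 two-colour Agilent arrays. The scanner files hold spot and background intensity values per dye, written by Feature Extraction 10.1.1.1 (replicate 1) and 10.7.3.1 (replicates 2 and 3), per the file headers. Their own log10 ratios of Cy5 over Cy3 come from processed signals that were background-subtracted and dye-normalized, per the file headers. The deposited series table holds 1 log2 value per probe and array, made with limma per the submitters' processing notes. Set against the ratios here, those values ran as Cy5 over Cy3 (r of 0.985, 0.982 and 0.997 over probes, slopes 0.957, 1.03 and 1.00, medians -0.02, -0.02 and -0.01), and how they were centred stays unknown.

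Median signals were corrected with normexp (offset 50) and normalized by loess within arrays in limma 3.58.1 under R 4.3.3, leaving out control spots and 116, 125 and 207 flagged spots. Saturated spots numbered 0 on each array. Of 41174 probes, 24019 had a value on all arrays and were well above background on all 3 in at least 1 channel. The brightest probe stood for a gene. Probes were named by unversioned accession: 23374 matched 16535 genes of the RefSeq table of GRCm38.p6, and promoters of 31 of the 52 patterning factors were in the RefSeq sequence table of that build. Levels per channel came from Aquantile scaling. Mean ratios were tested against 0 with lmFit and eBayes, with Benjamini-Hochberg adjustment over 18488 genes at 0.05. SD values are over 3 arrays. A sign-turning test of 3 arrays has a smallest two-sided p of 0.25. On simulated ratios for these 18488 genes, the test recovered 0% of 2-fold, 49.3% of 4-fold and 60.6% of 8-fold changes, with 1 false call. The simulated errors were independent between genes and arrays. They held no shift of replicate 1 shared by genes, so the false calls do not cover such a shift. The array number limits the precision.

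The patterning factors, gene lists and alternatives were chosen with earlier results of these data known. All patterning factors are named. Levels are written out for the 10 with the smallest p, the 3 highest and 3 lowest means and neighbouring gene pairs, and for others only where said. Other lists give counts and up to 4 genes of smallest p. Pairing is by array, since both cultures of a number shared one. Alternatives covered background correction, normalization, filters, probes, variance models, the slide, separate channels, each replicate left out and a threshold of 0.1.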

Additional observations from a re-analysis of the deposited data

How the results depend on the processing

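No patterning factor was called under the alternatives run (0 of 40 in limma, or 0 of 49 with no filter on dim probes), except with the slide as a fixed term, which called 17 of 40 beside 9.58% of all genes. Slide 1 holds 1 array, so that spread came from replicates 2 and 3 alone, and Pitx1 was called at 1.03 although its arrays differ in sign. The 58 called among all genes became 118 without background subtraction, 265 with an offset of 0, 325 with Feature Extraction signals, 34 with median centring, 156 with scale normalization, 92 with both channels above background, 0 with no filter, 113 with a variance trend, 185 with array weights (0.484, 3.09 and 0.667 for replicates 1, 2 and 3), 1772 with the slide term and 132 at a threshold of 0.1. Leaving out a replicate gave 0 to 284. Without the pairing by array (no replicate block) 0 were called, of which 0 were patterning factors, with 629 genes and 1 factor at an unadjusted p under 0.05.

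The median of the patterning factors stayed above 0: 0.27 as reported, 0.03, 0.44 and 0.53 without replicates 1, 2 and 3, and 0.08 with array weights. Median centring gave 0.08 where all genes had -0.30. Of the 40, 21 kept their sign under every alternative that gave a ratio for them (19 for most, and 18 for Shox2 and Sox6). Leaving out a replicate turned the sign of 14, whose lowest and highest values were -0.0021 and 0.602 for Alx1, -0.167 and 0.128 for Alx4, -0.0881 and 1.21 for Barx1, -0.461 and 0.324 for Dlx1, -0.0707 and 1.05 for Foxc1, -0.627 and 0.591 for Lhx9, -0.899 and 0.491 for Meis1, -0.0796 and 0.222 for Meis2, -0.20 and 0.949 for Meox2, -1.10 and 1.25 for Pitx1, -0.312 and 0.249 for Runx2, -0.473 and 0.979 for Scx, -0.416 and 0.680 for Tbx18, and -0.538 and 0.0684 for Tbx2. Median centring, which lowers most genes, turned Emx2 (-0.0652), Gli1 (0.0981), Lhx9 (-0.283), Meis2 (-0.327), Pitx1 (-0.0546), Tbx18 (-0.0208), Tbx3 (-0.193) and Twist1 (-0.262). Array weights turned Dlx1 (0.0543), Hand2 (-0.0888), Lhx9 (-0.182), Pitx1 (-0.371), Scx (-0.0594) and Tbx18 (-0.0295), and scale normalization Lhx9 (-0.0458). Alx4 turned with Feature Extraction signals (0.137), the deposited values (0.0393) and the slide term (0.0249), Dlx1 with the same signals (0.0138) and values (0.0342), and Runx2 with these (0.0437, 0.0646 and 0.107 for the slide term), the mean over probes (0.0687) and every probe on its own (0.0604). Beyond what each alternative's construction shows, the cause was not tested. Dim probes limit Sp7, Gli1 and Shox2, and Sox6 and Dlx5 on replicates 2 and 3.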
